A study of Mus musculus with 2 samples.

Results

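The S100 calcium-binding genes S100a8, S100a9, S100a6, S100a11, S100a4 and S100a10 were followed through single-cell RNA-seq of enriched mouse blood neutrophils. The 6 genes were found by symbol among the 32285 genes counted. Blood came from female mice at 7 months of age, and neutrophils were enriched by negative selection after lysis of the red cells. The WT library held pooled cells of 3 C57BL/6J mice, and the APP/PS1 library held pooled cells of 3 APP/PS1 transgenic mice, a model of amyloid deposition. The gene table has no separate entry for the transgenes, so the genotypes were taken from the labels. There was 1 library for each genotype, so no test was made. A difference between libraries below therefore compares those libraries and has no replicate check. In summed cells of a type, a lower level of a transcript and fewer cells that carry it cannot be told apart.

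S100 proteins are small proteins with EF-hand calcium-binding motifs that mostly act as dimers. S100A8 and S100A9 pair as calprotectin, a major cytosolic protein of neutrophils that binds calcium, zinc and manganese and signals through TLR4 and RAGE once released. S100A10 and S100A11 bind annexins, S100A6 binds annexins and CACYBP, and S100A4 binds non-muscle myosin and is known from motile cells. The 6 genes lie on chromosome 3 of mm10 in GENCODE M21. S100a4 spans chr3:90603771-90606045, S100a6 spans chr3:90612882-90624181 and S100a8 spans chr3:90668978-90670035, all on the plus strand. S100a9 spans chr3:90692632-90695721 on the minus strand. S100a11 spans chr3:93520488-93526287 and S100a10 spans chr3:93555080-93564643, both on the plus strand.

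The 250 bases before the RefSeq start of 4 genes are shown because their levels moved together or apart below: S100a8 and S100a9 were high and low in the same groups of cells, S100a11 stood high with them in neutrophils, and S100a4 was low there. RefSeq windows on GRCm38.p6, the assembly of mm10, matched 5 of the 6 genes, all but S100a10. Sequences run 5′ to 3′ on the strand of the gene. Capitals mark TATAAA, the letters of a TATA box, GAGGAA, a core bound by PU.1, and TGANTCA, bound by AP-1, searched on both strands, and no marked stretch overlaps another.
S100a8 chr3:90668821-90669070 plus strand: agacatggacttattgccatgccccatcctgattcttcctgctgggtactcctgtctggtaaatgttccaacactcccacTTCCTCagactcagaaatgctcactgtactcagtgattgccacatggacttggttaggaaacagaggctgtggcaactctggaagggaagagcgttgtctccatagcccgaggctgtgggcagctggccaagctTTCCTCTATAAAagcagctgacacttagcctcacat
S100a9 chr3:90695722-90695971 minus strand: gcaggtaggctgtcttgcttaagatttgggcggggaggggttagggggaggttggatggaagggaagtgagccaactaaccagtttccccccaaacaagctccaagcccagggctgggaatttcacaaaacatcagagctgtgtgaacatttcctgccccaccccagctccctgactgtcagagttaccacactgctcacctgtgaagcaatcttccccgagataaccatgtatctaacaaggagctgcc
S100a11 chr3:93520246-93520495 plus strand: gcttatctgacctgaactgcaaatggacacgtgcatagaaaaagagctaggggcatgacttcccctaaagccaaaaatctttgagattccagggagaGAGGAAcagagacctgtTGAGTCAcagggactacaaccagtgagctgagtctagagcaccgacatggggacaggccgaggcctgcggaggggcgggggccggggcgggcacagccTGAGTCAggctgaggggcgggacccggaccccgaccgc
S100a4 chr3:90603520-90603769 plus strand: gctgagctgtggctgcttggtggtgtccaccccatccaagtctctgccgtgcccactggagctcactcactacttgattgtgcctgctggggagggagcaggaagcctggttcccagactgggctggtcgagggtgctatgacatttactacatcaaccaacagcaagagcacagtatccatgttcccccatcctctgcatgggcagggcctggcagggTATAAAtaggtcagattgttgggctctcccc

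In S100a8 the letters TATAAA began 30 bases before the start and directly followed the TTCCTC that began at base 36, while another TTCCTC began at base 170. GENCODE places the start of S100a8 earlier, inside this window. The window of S100a4 held TATAAA 31 bases before the start, and that of S100a9 held none, while the same letters began there at base 1 counted from the RefSeq start. S100a11 held GAGGAA at 153 bases and TGAGTCA at 136 and 38 bases before the start, and no TATAAA. S100a6 held none of these 3 motifs. TTNNGNAA, a loose C/EBP motif that is not capitalised, was found 1 time in S100a8, 2 times in S100a9 and in none of the other 3 windows. Of 32851 such windows of the genome, 12.4% held TATAAA, 23.3% held GAGGAA, 36.8% held TTNNGNAA and 6.75% held TGANTCA, and 0.338% held TGANTCA at least 2 times. These matches describe the letters and do not show binding.

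Of the deposited barcodes, 17123 were WT cells and 17645 APP/PS1 cells, with 92458623 and 84870864 unique molecular identifiers (UMIs, each standing for 1 captured RNA molecule). After the filters, 14564 and 15208 cells were kept, with a median of 3274 and 3085 UMIs per cell. The libraries shared 83 cell barcodes, and 63 of these were kept in both. Levels are UMIs of a gene scaled to the summed UMIs of the group (CPM, with the total set to 1e6), and 95% intervals, given in brackets, cover counting error only. The 3′ method counts each molecule at 1 end, so levels of different genes do not depend on gene length. Clusters named by markers gave 5864 WT and 7011 APP/PS1 neutrophils, with all 9 neutrophil markers detected. A further 1717 and 2577 neutrophils lay in a cluster led by platelet genes and were kept apart. The enriched blood also held classical and nonclassical monocytes, NK, T and B cells, plasma cells, basophils, erythroid cells and platelets, each with every one of its markers detected. Detected here means any UMI in the summed cells. Markers of other types also passed that limit, such as the erythroid markers in B cells, so it does not by itself bear out a name. T cells formed 2 clusters, 1 led by Cd8b1, a chain of the CD8 co-receptor, and 1 led by Il7r, the interleukin-7 receptor, with the gamma delta receptor genes Trdc and Tcrg-C1.

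S100a8 and S100a9 were far more abundant in neutrophils than in any other cell type. S100a8 stood at 66970 CPM (WT, 66846 to 67094) and 54408 CPM (APP/PS1, 54309 to 54508) in neutrophils. S100a9 stood at 96992 CPM (WT, 96842 to 97141) and 83997 CPM (APP/PS1, 83874 to 84120.5). The pair made up 16.4% of all neutrophil UMIs in WT and 13.8% in APP/PS1. From cell to cell this share ran from 3.60% at the 5th percentile over a median of 15.1% to 27.6% at the 95th in WT, and from 1.74% over 11.9% to 25.5% in APP/PS1. The median number of S100a8 UMIs in a neutrophil was 157 (WT) and 123 (APP/PS1). The share of the pair thus varied widely among neutrophils, and its 5th percentile, median and 95th percentile were all lower in the APP/PS1 library.

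Below neutrophils, the summed level of S100a8 followed no order that both libraries shared throughout. Erythroid cells came next in APP/PS1, at 17821 CPM, and plasma cells in WT, at 18192 CPM. Erythroid cells had 15660.5 CPM in WT, and plasma cells 7484 CPM in APP/PS1. NK cells had 6932 (WT) and 6284 (APP/PS1) CPM, T cells led by Cd8b1 had 6496 (WT) and 5622 (APP/PS1) CPM, and B cells had 4724 (WT) and 2408 (APP/PS1) CPM. Classical monocytes had 4329.8 (WT) and 2971 (APP/PS1) CPM, and nonclassical monocytes were lowest in both libraries, with 1958 (WT) and 1752 (APP/PS1) CPM. The cluster of neutrophils with platelet genes had 59839 (WT) and 49246 (APP/PS1) CPM. Scrublet called 38% of the WT and 51.8% of the APP/PS1 erythroid cells doublets, that is, droplets with more than 1 cell. It called 34% and 11% of the plasma cells, against 0.102% and 1.34% of the neutrophils. The part of doublets in the erythroid and plasma cell levels was not tested. The median plasma cell had 913 (WT) and 728 (APP/PS1) CPM of S100a8, far below the summed level.

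**Figure D1:**
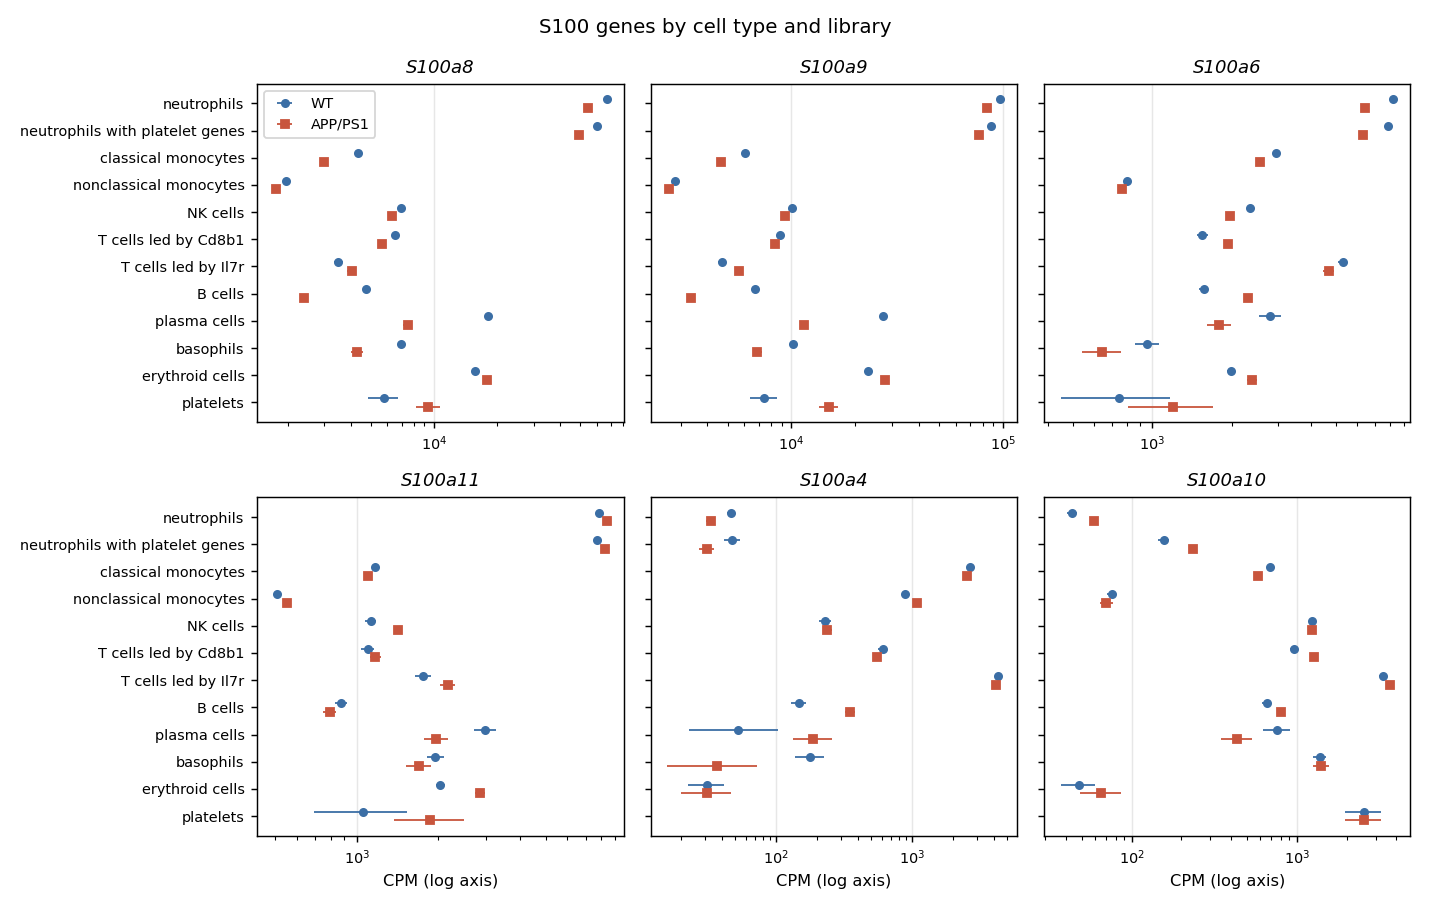
CPM (log axis) of the 6 S100 genes in each cell type, with WT as blue circles, APP/PS1 as red squares and bars for 95% counting intervals. S100a8, S100a9 and S100a11 were highest in neutrophils, while S100a4 and S100a10 were highest in T cells led by Il7r. S100a4 in platelets had 0 UMIs and is not drawn.

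In lymphocytes the levels of S100a8 and S100a9 were carried by a minority of the cells and moved with other neutrophil genes. Retnlg, Csf3r, Cxcr2, Il1r2, Mmp9, Hdc, Lcn2 and Stfa2l1, genes of neutrophils, served as the guide. Over all NK cells, S100a8 stood at 10.4% of its neutrophil level in WT and the 8 guide genes, summed, at 10.6%, and in APP/PS1 the values were 11.5% and 11.5%. In B cells S100a8 stood at 7.05% and 4.43%, and the guide genes at 6.86% and 3.78%. Basophils differed, since their guide genes stood at 23.9% and 20.5% and S100a8 at 10.4% and 7.92%. Hdc, the histidine decarboxylase, is itself a basophil gene.

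Cells with 3 or more UMIs of the guide genes made up 23.3% of the WT NK cells (19.4% to 27.6%) and 24.3% of the APP/PS1 NK cells (21.3% to 27.5%). They held 92.8% and 92.3% of the NK UMIs of S100a8 and S100a9, and their median depth was 4978 and 5120 UMIs against 3386 and 3188 in the other NK cells. When these cells were left out, which also sets the guide genes low, S100a8 in NK, T and B cells stood at 0.957% to 1.36% of the neutrophil level and S100a9 at 0.906% to 1.27%, with the guide genes at 0.659% to 0.970%. Classical monocytes without such cells had S100a8 at 0.982% and 1.11%, and nonclassical monocytes at 1.17% and 1.28%. Monocytes and lymphocytes with few guide UMIs thus had a like low level of both genes, slightly above that of the guide genes in each of these types. Cells with 3 or more guide UMIs were more common in classical monocytes, 62% and 57.8%, where they held 94.7% and 92.2% of the UMIs of the pair. The median classical monocyte held 7963 UMIs, against 3449 in NK cells, and a deeper cell reaches 3 UMIs more readily. Over all classical monocytes the guide genes stood at 6.79% (WT) and 6.27% (APP/PS1) of their neutrophil level, below the NK values. Cells with 3 or more guide UMIs held 98.3% (WT) and 94.4% (APP/PS1) of the UMIs of the pair in plasma cells. In erythroid cells they held 98.6% and 99.7%. Without such cells, S100a8 stood at 805 (WT) and 702 (APP/PS1) CPM in plasma cells. Erythroid cells then had 823 and 562 CPM, the APP/PS1 value from 8 cells.

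The other 4 genes stood at a larger share of their neutrophil level. In the same cells, S100a11 was at 5.71% to 21.6% of the neutrophil level in lymphocytes and at 4.48% to 10.4% in monocytes. S100a6 was at 11.2% to 70.6% in lymphocytes and at 7.85% to 37.4% in monocytes. S100a4 and S100a10 exceeded their neutrophil level in every one of these types, S100a4 by the most in T cells led by Il7r, at 9636% and 13638%.

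**Figure D2:**
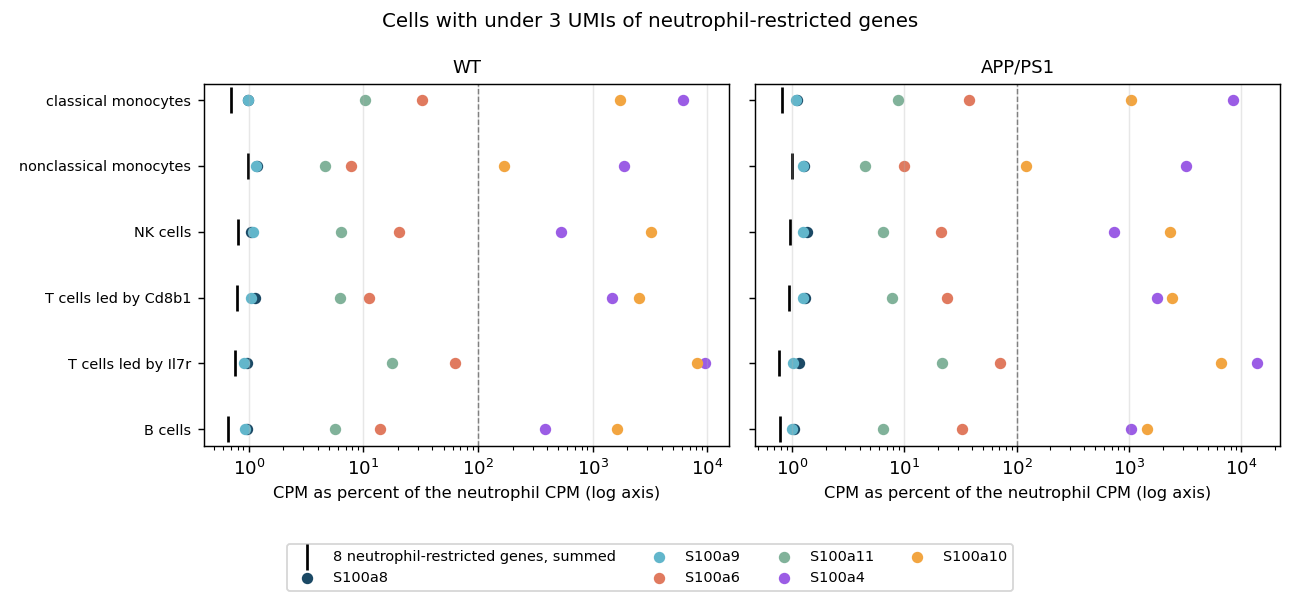
CPM as percent of the neutrophil CPM of the same library (log axis) in cells with under 3 UMIs of the 8 guide genes, for the 6 S100 genes (coloured points) and the guide genes summed (black bars), with the dashed line at 100%. S100a8 and S100a9 lie near the black bars in every type, and the choice of cells by guide UMIs itself sets these bars low. S100a11 lies at 4.48% to 10.4% in monocytes, S100a6 reaches 70.6% in T cells led by Il7r, and S100a4 and S100a10 lie above 100%.

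S100a6 and S100a11 were also highest in neutrophils, several-fold below S100a8. S100a6, known as calcyclin, had 8216 CPM (WT, 8172 to 8259) and 6416 CPM (APP/PS1, 6382 to 6450.0) in neutrophils. It was also high in T cells led by Il7r, with 5288 CPM (WT, 5083 to 5499) and 4664 CPM (APP/PS1, 4462 to 4873), and in classical monocytes, with 2937 CPM (WT, 2914 to 2961) and 2566 CPM (APP/PS1, 2539 to 2593). Nonclassical monocytes had 803 (WT) and 767 (APP/PS1) CPM. S100a11 had 7868 CPM (WT, 7826 to 7911) and 8373 CPM (APP/PS1, 8334 to 8412) in neutrophils, and its median number of UMIs in a neutrophil was 20 (WT) and 23 (APP/PS1). In T cells led by Il7r S100a11 had 1752 (WT) and 2164 (APP/PS1) CPM, in classical monocytes 1168 (WT) and 1101 (APP/PS1) CPM and in nonclassical monocytes 507 (WT) and 551 (APP/PS1) CPM. S100a11 in plasma cells and erythroid cells, between 1964 and 2984 CPM, came from types in which 24.4% to 92.9% of the cells held 3 or more guide UMIs. Basophils had 1949 (WT) and 1692 (APP/PS1) CPM of S100a11, at 24.8% and 20.2% of the neutrophil level, against 10.4% and 7.92% for S100a8. Guide UMIs do not mark neutrophil RNA in basophils, since Hdc is also a basophil gene, and the part of neutrophil RNA there was not tested.

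S100a4, the metastasin gene, was a gene of monocytes and of some T cells and was close to 0 in neutrophils. T cells led by Il7r had 4267 CPM (WT, 4084 to 4457) and 4141 CPM (APP/PS1, 3951 to 4338). Classical monocytes had 2653 CPM (WT, 2630.4 to 2675) and 2521 CPM (APP/PS1, 2495 to 2548), and the median number of UMIs in a classical monocyte was 21 (WT) and 18 (APP/PS1). Nonclassical monocytes had 893 CPM (WT, 875 to 910.2) and 1087 CPM (APP/PS1, 1063 to 1112). T cells led by Cd8b1 followed with 606 (WT) and 549.6 (APP/PS1) CPM, and NK cells with 229.6 CPM (WT, 207 to 254) and 238 CPM (APP/PS1, 221 to 257). B cells had 147 CPM (WT, 129 to 167) and 349 CPM (APP/PS1, 323 to 378), below NK cells in WT and above them in APP/PS1. Neutrophils had 46.9 CPM (WT, 43.7 to 50.3) and 33.1 CPM (APP/PS1, 30.7 to 35.7). Erythroid cells, with 31.1 CPM (WT, 22.7 to 41.6) and 31.3 CPM (APP/PS1, 20.1 to 46.6), lay below neutrophils in WT and overlapped with them within counting error in APP/PS1. In platelets S100a4 had 0 UMIs in both libraries. The limit taken for a count of 0, 3 UMIs, corresponds there to 117 (WT) and 119 (APP/PS1) CPM.

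S100a10, the annexin A2 partner also called p11, was highest in T cells led by Il7r, with 3321 CPM (WT, 3159 to 3489) and 3678 CPM (APP/PS1, 3499 to 3864). Platelets followed with 2543 CPM (WT, 1963 to 3241) and 2543 CPM (APP/PS1, 1959 to 3248), from 16 cells in each library, which overlapped with these T cells in WT within counting error. Basophils had 1373 CPM (WT, 1257 to 1496) and 1402 CPM (APP/PS1, 1249 to 1569) and NK cells 1232 CPM (WT, 1179.6 to 1287) and 1233 CPM (APP/PS1, 1192 to 1274), which overlapped within counting error in both libraries. T cells led by Cd8b1 had 961 CPM (WT, 908 to 1017) and 1277 CPM (APP/PS1, 1223 to 1333), which overlapped with NK cells in APP/PS1 and lay below them in WT. B cells had 655 (WT) and 803 (APP/PS1) CPM, and classical monocytes had 689.6 (WT) and 585 (APP/PS1) CPM. Nonclassical monocytes had only 75.7 CPM (WT, 70.7 to 80.9) and 70.4 CPM (APP/PS1, 64.3 to 77), and neutrophils 43.5 CPM (WT, 40.4 to 46.8) and 58.9 CPM (APP/PS1, 55.7 to 62.2). In neutrophils with platelet genes S100a10 was higher, with 156 CPM (WT, 145 to 167) and 234 CPM (APP/PS1, 224 to 245). Their platelet markers summed to 2294 (WT) and 2573 (APP/PS1) CPM, against 375 and 408 CPM in the other neutrophils, with all 7 markers detected in each group, and the part of platelet RNA in the S100a10 level was not tested. The other 5 members differed between these neutrophil groups by at most 0.16 on the log2 scale in size.

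Summed over all cells of each type, all 6 members were higher in classical than in nonclassical monocytes beyond counting error. The log2 ratio of classical over nonclassical monocytes for S100a10 was 3.19 (WT, 3.09 to 3.29) and 3.06 (APP/PS1, 2.92 to 3.19). For S100a6 it was 1.87 (WT, 1.84 to 1.9) and 1.74 (APP/PS1, 1.7 to 1.78). For S100a4 it was 1.57 (WT, 1.54 to 1.6) and 1.21 (APP/PS1, 1.18 to 1.25), and for S100a11 1.2 (WT, 1.16 to 1.25) and 1.0 (APP/PS1, 0.95 to 1.05). S100a8, at 1.15 (WT, 1.12 to 1.17) and 0.76 (APP/PS1, 0.73 to 0.79), and S100a9, at 1.11 (WT, 1.09 to 1.12) and 0.82 (APP/PS1, 0.80 to 0.85), differed beside a larger share of classical monocytes with 3 or more guide UMIs, whose part in the difference was not tested. Among cells with under 3 guide UMIs, both genes were lower in classical monocytes. S100a8 had 658 (WT) and 603 (APP/PS1) CPM there, against 785 and 694 CPM in nonclassical monocytes. S100a9 had 951 and 924 CPM against 1120 and 1064 CPM. The other members stayed higher in classical monocytes.

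T and NK cells were clustered again without S100 genes among the features, and S100a4, S100a6, S100a10 and S100a11 varied strongly among the 8 clusters. S100a4 was highest in cluster 3, led by genes such as Blk, Il17a and Tcrg-C1, with 4670.5 CPM (WT, 4464 to 4884) and 4879 CPM (APP/PS1, 4631 to 5136). It was lowest in cluster 5, which was naive-like by its leading genes Ccr7, Dapl1, Igfbp4 and Lef1, with 42.4 CPM (WT, 24.2 to 68.9) and 29.3 CPM (APP/PS1, 9.52 to 68.5) from 16 and 5 UMIs. The log2 ratio of cluster 3 over cluster 5 was 6.78 (WT, 6.08 to 7.59) and 7.38 (APP/PS1, 6.15 to 9.0). Cluster 1, led by Gzmk and Cd8b1 and with the proliferation gene Mki67 among its leading genes, had 1095 (WT) and 815 (APP/PS1) CPM. Cluster 0, led by NK genes such as Klra4 and Ncr1, had 235 (WT) and 233 (APP/PS1) CPM.

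S100a6, S100a10 and S100a11 had the same extremes among the 7 T and NK clusters other than cluster 2, described next. S100a6 had 5298 (WT) and 5029.5 (APP/PS1) CPM in cluster 3 and 169.7 (WT) and 111 (APP/PS1) CPM in cluster 5, with log2 ratios of 4.96 (WT, 4.61 to 5.35) and 5.5 (APP/PS1, 4.85 to 6.23). S100a10 had 3525 (WT) and 4138 (APP/PS1) CPM in cluster 3 and 384 (WT) and 375 (APP/PS1) CPM in cluster 5, with ratios of 3.2 (WT, 2.95 to 3.45) and 3.46 (APP/PS1, 3.1 to 3.85). S100a11 had 1432 (WT) and 1972 (APP/PS1) CPM in cluster 3 and 233 (WT) and 194 (APP/PS1) CPM in cluster 5. S100a8 had 683 (WT) and 694 (APP/PS1) CPM in cluster 3 and 732 (WT) and 487 (APP/PS1) CPM in cluster 5, with log2 ratios of -0.099 (WT, -0.34 to 0.15) and 0.51 (APP/PS1, 0.14 to 0.90). Its ratio of cluster 0 over cluster 5 was 0.18 (WT, -0.011 to 0.38) and 0.92 (APP/PS1, 0.61 to 1.26), and that of cluster 1 over cluster 5 was 0.37 (WT, 0.15 to 0.59) and 0.88 (APP/PS1, 0.55 to 1.22). Cluster 3 also carried more erythroid marker RNA, at a mean log2 ratio of 1.33 to the other T and NK cells, and its part in these levels was not tested.

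Most S100a8 and S100a9 of T and NK cells lay in cluster 2, which was led by neutrophil genes such as Retnlg, Cxcr2 and Hdc. Its 98 WT and 165 APP/PS1 cells had 30507 (WT) and 24191 (APP/PS1) CPM of S100a8, and the guide genes stood at 45.1% and 44.4% of their neutrophil level. The median cell of cluster 2 held 6234 UMIs, against 2966 to 4757 in the other clusters. Scrublet called 69.4% and 63.6% of its cells doublets, against 0.968% and 0.705% in cluster 0. Without cluster 2, S100a8 in NK cells fell from 10.4% to 1.21% of the neutrophil level in WT and from 11.5% to 1.71% in APP/PS1.

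**Figure D3:**
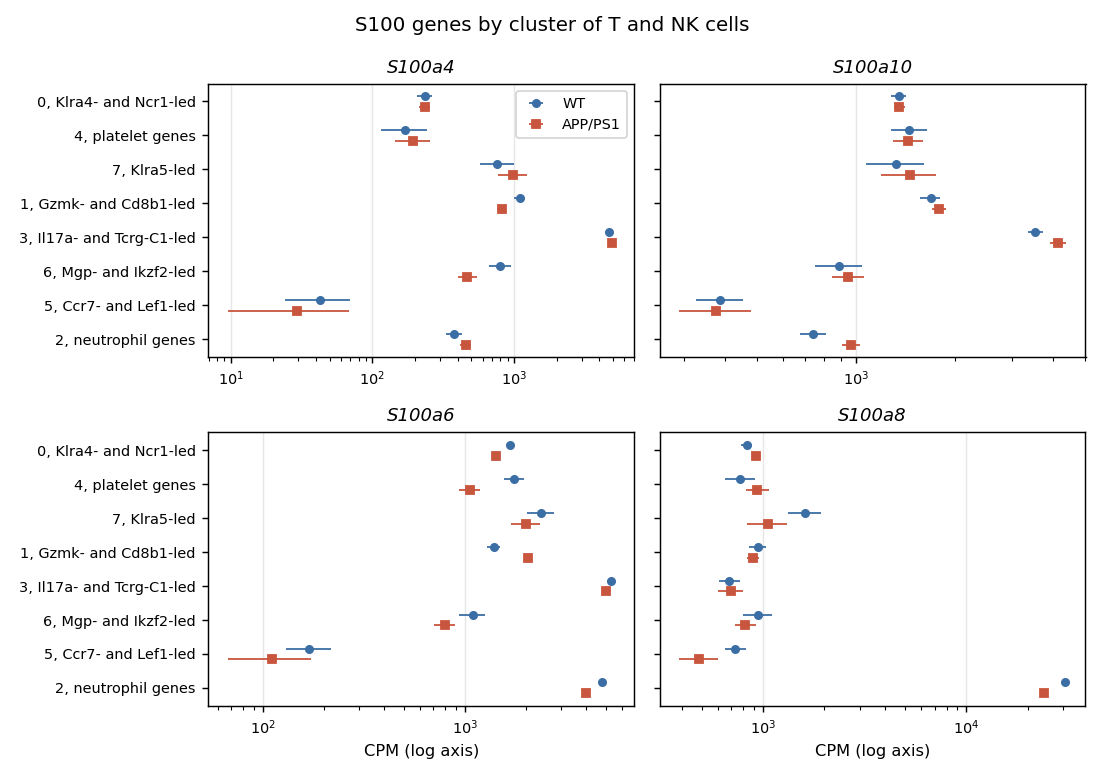
CPM (log axis) of S100a4, S100a10, S100a6 and S100a8 in the 8 clusters of T and NK cells, with WT as blue circles, APP/PS1 as red squares and bars for 95% counting intervals. S100a4, S100a10 and S100a6 were highest in cluster 3 and lowest in cluster 5, whereas S100a8 stood out in cluster 2 alone.

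Neutrophils were clustered again with anchors between the libraries, also without S100 genes among the features, and S100a8 and S100a9 differed most between the cells led by granule genes and those led by Nfkbia. Cluster 4, led by Camp, Ngp and Ltf, genes of secondary granules made in immature neutrophils, had 131710 CPM (WT, 130927 to 132497) and 127512 CPM (APP/PS1, 126916 to 128110) of S100a8. Cluster 2, led by Nfkbia, Dusp2 and Clec4n, had 46465 CPM (WT, 46280.2 to 46651) and 33459 CPM (APP/PS1, 33315 to 33605). The log2 ratio of cluster 4 over cluster 2 was 1.5 (WT, 1.49 to 1.51) and 1.93 (APP/PS1, 1.92 to 1.94) for S100a8 and 1.26 (WT, 1.25 to 1.27) and 1.67 (APP/PS1, 1.66 to 1.67) for S100a9. Cluster 0, the largest, led by stefin genes and Retnlg, had 74834 (WT) and 60138 (APP/PS1) CPM of S100a8. Cluster 1, with platelet genes, had 59561 (WT) and 47826 (APP/PS1) CPM, and cluster 3, led by interferon-induced genes such as Ifit3, had 58807 (WT) and 47792 (APP/PS1) CPM. The order of clusters 4, 0 and 2 was the same in both libraries.

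S100a11 differed from S100a8 in cluster 4. It was lowest in cluster 4, with 5916 CPM (WT, 5751 to 6085) and 5778 CPM (APP/PS1, 5652 to 5906), and highest in cluster 0, with 8376 CPM (WT, 8316 to 8436) and 9123 CPM (APP/PS1, 9066 to 9181). The log2 ratio of cluster 4 over cluster 0 was -0.50 (WT, -0.54 to -0.46) and -0.66 (APP/PS1, -0.69 to -0.63). Between clusters 0 and 2 S100a11 had the direction of S100a8, with a log2 ratio of cluster 0 over cluster 2 of 0.19 (WT, 0.17 to 0.21) and 0.25 (APP/PS1, 0.24 to 0.27). S100a6 was lowest in cluster 2, with 6732 CPM (WT, 6662 to 6803) and 4782 CPM (APP/PS1, 4727 to 4837), where cluster 5 overlapped with it in WT at 6789 CPM, and highest in cluster 0, with 9203 CPM (WT, 9140.1 to 9266) and 7494 CPM (APP/PS1, 7442 to 7546). S100a10 differed from cluster 0 by the most in cluster 1, with 158 (WT) and 238 (APP/PS1) CPM against 40.7 (WT) and 55.9 (APP/PS1) CPM, and this is the cluster of platelet genes. S100a4 stayed at or under 75.5 CPM in all 6 clusters. Cluster 4 held 153 WT and 218 APP/PS1 cells, with a median of 5836 UMIs against 2467 to 2768 in the other clusters. After each cell was thinned to 1000 UMIs, a cell of cluster 4 held a median of 126 and 124 UMIs of S100a8, against 39 and 25 in cluster 2.

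**Figure D4:**
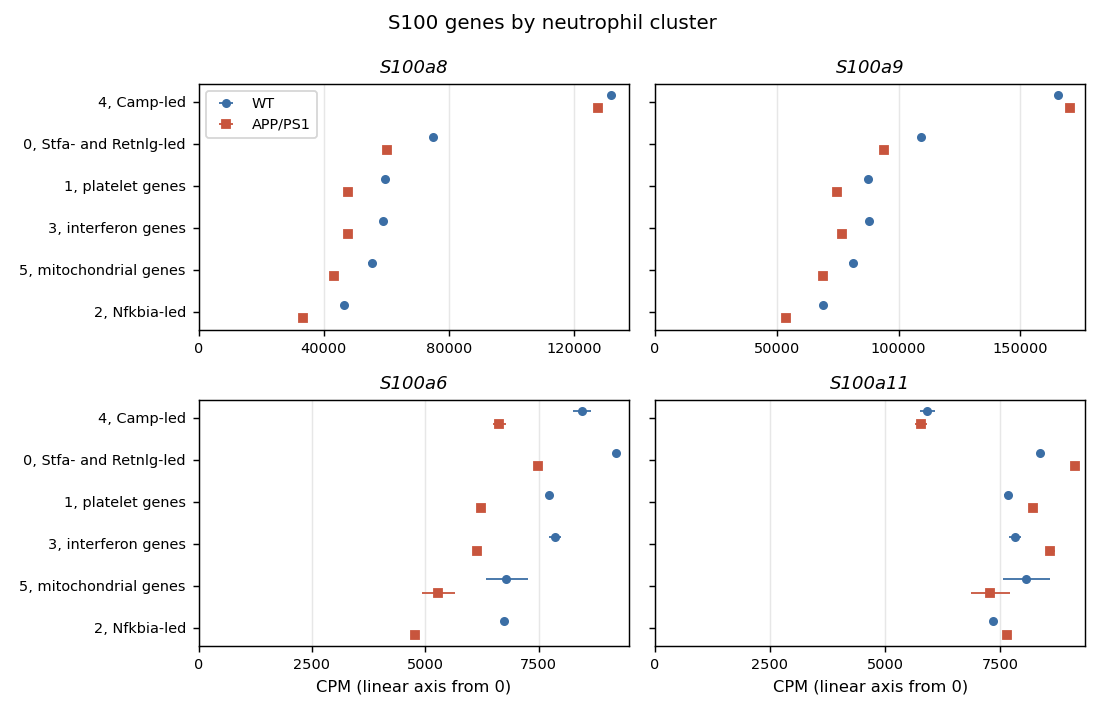
CPM (linear axis from 0) of S100a8, S100a9, S100a6 and S100a11 in the 6 neutrophil clusters, with WT as blue circles, APP/PS1 as red squares and bars for 95% counting intervals. S100a8 and S100a9 were highest in cluster 4 and lowest in cluster 2, while S100a11 was lowest in cluster 4.

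Over all cells of a type or neutrophil cluster, S100a9 gave more UMIs than S100a8, in a ratio between 1.26 and 1.60. Neutrophils held 1.45 (1.44 to 1.45) UMIs of S100a9 per UMI of S100a8 in WT and 1.54 (1.54 to 1.55) in APP/PS1. The ratio in NK cells was 1.45 (1.42 to 1.49) and 1.48 (1.45 to 1.51), and in B cells 1.42 (1.38 to 1.46) and 1.40 (1.34 to 1.45). It was lowest in neutrophil cluster 4, at 1.26 (1.25 to 1.27) and 1.33 (1.33 to 1.34), against 1.48 (1.47 to 1.49) and 1.60 (1.59 to 1.61) in cluster 2. S100a8 thus exceeded its level in other neutrophils by more than S100a9 did in the cells led by granule genes. In every neutrophil cluster the ratio was higher in APP/PS1 than in WT.

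Among single neutrophils thinned to 1000 UMIs, S100a8 and S100a9 were tightly correlated, and S100a6 and S100a11 only weakly correlated with them. For S100a4 and S100a10 no r was computed. Across 5864 WT and 7009 APP/PS1 neutrophils, Pearson's r of S100a8 and S100a9 was 0.86 and 0.89. For S100a8 and S100a6 r was 0.34 and 0.37, and for S100a8 and S100a11 0.11 and 0.11. Without cluster 4, r of S100a8 and S100a9 was 0.86 and 0.88, that of S100a8 and S100a6 0.36 and 0.41 and that of S100a8 and S100a11 0.14 and 0.19. Cells of 1 library share that library, so r describes these cells and has no p-value.

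In neutrophils, the APP/PS1 library had lower levels than the WT library of S100a8, S100a9, S100a6 and S100a4 and higher levels of S100a11 and S100a10. On the log2 scale of CPM, APP/PS1 over WT, the difference was -0.30 (-0.30 to -0.30) for S100a8, -0.21 (-0.21 to -0.20) for S100a9 and -0.36 (-0.37 to -0.35) for S100a6. S100a11 differed by 0.09 (0.079 to 0.10). S100a10 differed by 0.44 (0.30 to 0.57), from 727 and 1248 UMIs, and S100a4 by -0.50 (-0.65 to -0.35), from 784 and 702 UMIs. Both genes were low in neutrophils. S100a4 had 46.9 (WT) and 33.1 (APP/PS1) CPM there, against 31.1 and 31.3 CPM in erythroid cells. S100a10 had 43.5 and 58.9 CPM, against 47.7 and 65.3 CPM in erythroid cells. The part of RNA from other cells in the ratios of S100a4 and S100a10 was not tested. With each cell given to the type of its most abundant markers in place of clusters (the marker gate), S100a10 turned to -0.031, S100a8 shrank to -0.17 and S100a9 to -0.074. S100a6 was -0.23, S100a11 0.22 and S100a4 -0.90 under this gate. At a fold of over 0.5 on the log2 scale, 1 of 6 members was past it, S100a4, whose value lay at the edge, and 11% of the 8925 genes with at least 50 UMIs were. With cluster 4 left out, S100a4 stood at -0.48 and no member was past the fold. The median over these genes was 0.058 and over the members -0.25. Since 1 member in 6 is near the background, the count says nothing particular about the S100 genes.

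The 6 neutrophil clusters showed the same directions for S100a8 and S100a6 and an exception for S100a9. S100a8 was lower in APP/PS1 in all 6, from -0.47 (-0.48 to -0.47) in cluster 2 to -0.047 (-0.058 to -0.036) in cluster 4. S100a9 was lower in 5 of 6, by the most in cluster 2 at -0.36 (-0.37 to -0.35), and stood at 0.041 (0.032 to 0.051) in cluster 4. S100a6 was lower in all 6, from -0.49 (-0.52 to -0.47) in cluster 2 to -0.30 (-0.31 to -0.28) in cluster 0. S100a11 was higher in clusters 0, 1, 2 and 3, at 0.06 (0.041 to 0.08) to 0.13 (0.10 to 0.16), and lower in cluster 5, at -0.15 (-0.27 to -0.021). In cluster 4 its interval held 0, at -0.034 (-0.086 to 0.018). Whether clusters differ in this ratio was not tested, since each rests on 1 library per genotype.

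In the cluster of neutrophils with platelet genes, S100a4 at -0.62 (-0.87 to -0.36) and S100a10 at 0.59 (0.47 to 0.71) were past the fold, 2 of 6 members against 10.4% of all genes tested. In classical monocytes S100a8 alone was past it, at -0.54 (-0.56 to -0.53), against 7.45%, and this was not stable. Under the marker gate it was 0.52, without doublets it was 0.35, and without cells of 3 or more guide UMIs it was -0.13. S100a4, high in monocytes, differed by -0.073 (-0.093 to -0.054) there and by 0.28 (0.24 to 0.33) in nonclassical monocytes. No member was past the fold in nonclassical monocytes, where 7.58% of genes were, in NK cells, with 9.87%, or in T cells led by Cd8b1, with 15%. S100a10 in NK cells was level between the libraries, at 0.00041 (-0.078 to 0.079), and in T cells led by Cd8b1 it stood at 0.41 (0.31 to 0.51). Within T/NK cluster 1, led by Gzmk and Cd8b1, it stood at 0.087 (-0.037 to 0.21). In the naive-like cluster 5 it stood at -0.034 (-0.48 to 0.40). Cluster 1 held 137 WT and 285 APP/PS1 cells, and cluster 5 held 79 and 34. The highest ratios were 0.38 in cluster 2 and 0.23 in cluster 3. The part of the mix of clusters was not tested.

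B cells had 4 of 6 members past the fold, against 14.5% of genes. S100a8 at -0.97 (-1.03 to -0.92) and S100a9 at -0.99 (-1.04 to -0.95) were lower in APP/PS1, where 7 of the 8 guide genes were also past the fold and lower, and the values without cells of 3 or more guide UMIs were -0.20 and -0.11. Under the marker gate the direction turned, to 0.58 for S100a8 and 0.60 for S100a9. S100a6 went from 1568 CPM in WT to 2304 CPM in APP/PS1, a log2 difference of 0.56 (0.48 to 0.63), and S100a4 from 147 to 349 CPM, a difference of 1.24 (1.03 to 1.46). Without the cells of 3 or more guide UMIs these were 0.87 and 0.93. The S100a4 of B cells lay in few cells, and the 10% of the cells with the most held 78.5% of its UMIs in WT and 67.8% in APP/PS1, from 242 and 639 UMIs over 303 and 307 cells. Erythroid markers in B cells summed to 13082 (WT) and 3341 (APP/PS1) CPM, with all 7 detected, and their part in these differences was not tested.

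**Figure D5:**
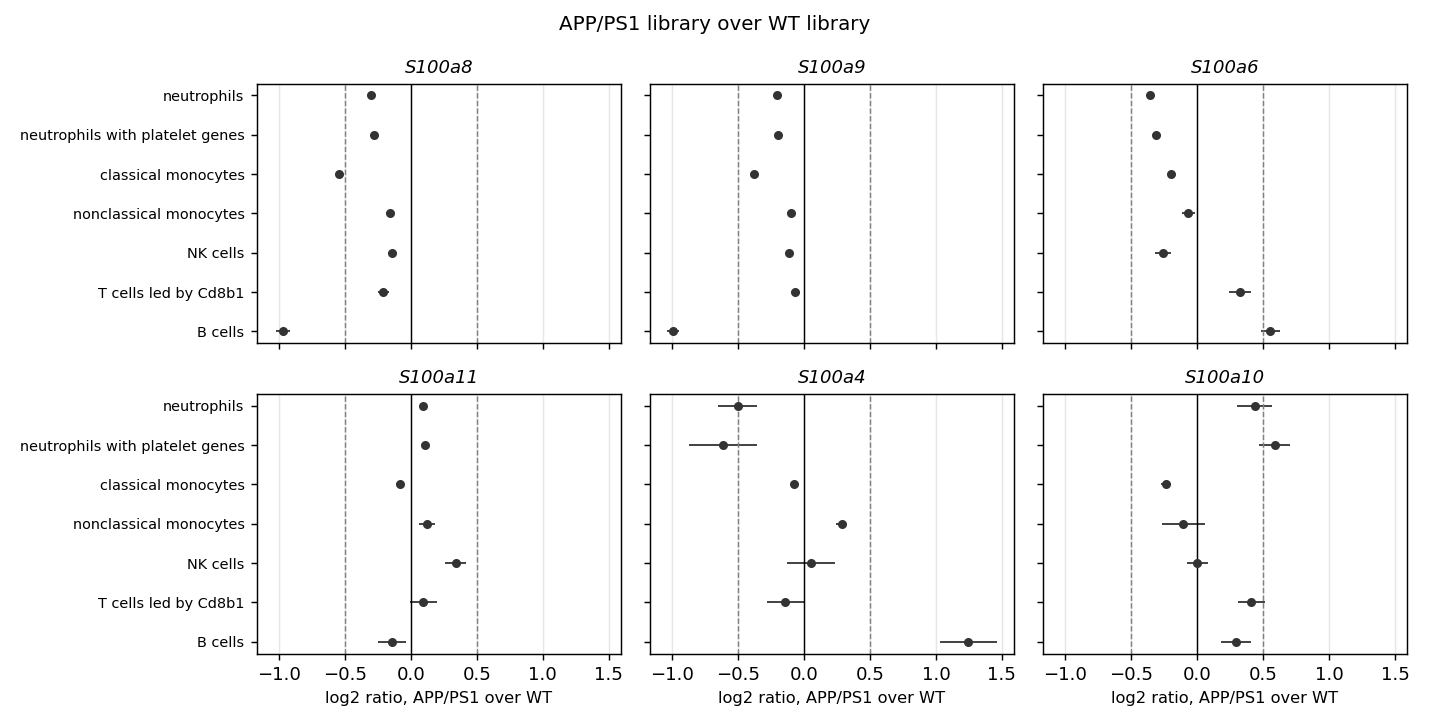
Log2 ratio of CPM, APP/PS1 over WT, of the 6 S100 genes in 7 groups of cells, with 95% counting intervals as bars, a solid line at 0 and dashed lines at 0.5 and -0.5. S100a8, S100a9 and S100a6 lie left of 0 in neutrophils, S100a10 lies right of 0, and the largest differences are those of S100a8, S100a9 and S100a4 in B cells.

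Transcripts of receptors of released S100 proteins made up few of the UMIs of these neutrophils. Tlr4, the receptor of calprotectin, had 39.2 (WT) and 37.9 (APP/PS1) CPM, and its co-receptor Ly96 had 38.8 and 46.2 CPM. Ager, which encodes RAGE, had 4.61 and 6.18 CPM, and Bsg, which encodes basigin, 41.6 and 50.7 CPM. Of 5 receptors tested in neutrophils, Cd36 was past the fold, with -0.72 (-1.28 to -0.17) on the log2 scale from 65 and 50 UMIs, against 11% of all genes tested, and the median of the list was 0.25.

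The annexins among the partners differed in abundance. Anxa6 was lower in neutrophils than in classical monocytes and NK cells in both libraries. Anxa11 was far below Anxa1 and Anxa2, which were abundant in neutrophils. Anxa1, a partner of S100A11, had 874 (WT) and 952 (APP/PS1) CPM, and Anxa2, the partner of S100A10, had 1111 and 1111 CPM, although S100a10 itself was near its lowest level there. Ahnak, which the S100A10 and annexin A2 complex binds, was low in neutrophils like S100a10, with 22.8 and 24.3 CPM in neutrophils, 1465 and 1573 CPM in NK cells and 1539 and 1511 CPM in classical monocytes. Rac2, a small GTPase, had 1153 and 1225 CPM in neutrophils. Of 10 partners, Anxa6 was past the fold in neutrophils, with 0.61 (0.41 to 0.80), against 11% of all genes tested, and the list's median was 0.09 against 0.058 over all genes.

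Of 4 regulators of S100a8 and S100a9 or of myeloid genes, none was past the fold in neutrophils. Cebpe, a factor of granule formation, came nearest, with 0.49 (0.30 to 0.68), and Cebpd stood at 0.36 (0.33 to 0.40). Cebpb had 3702 (WT) and 3547 (APP/PS1) CPM, and Spi1, which encodes PU.1, 1122 and 1051 CPM. Of the other 11 S100 genes in the table, S100a13 had the most UMIs, with 66.2 and 78.4 CPM in neutrophils and 398 and 415 CPM in NK cells, above S100a4 in both and above S100a10 in neutrophils. S100a1 followed, with its highest level, 430.4 CPM, in WT platelets, a group of 16 cells in which 3 UMIs correspond to 117 CPM. S100a3, S100a14, S100a7a and S100a2 had 52 to 136 UMIs over all kept cells, and S100a16, S100a5, S100b, S100g and S100z had 30 or fewer. Of the 4 with at least 50 UMIs in neutrophils, none was past the fold.

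The genes whose profile was most like that of each member were sought over 24 profiles, 12 cell types in each of 2 libraries, among 7426 genes, by Pearson's r of log2(CPM + 1). The profiles of a library share its free RNA, so r is a description. Outside the family, Retnlg, Mmp9 and Lcn2 were nearest to S100a8, with r of 0.987, 0.984 and 0.977, and the same 3 genes were nearest to S100a9. S100a11 was nearest to Lmnb1, Mmp9 and Mxd1, with r of 0.954, 0.946 and 0.94. S100a6 had no gene as near, with Galm at 0.838, Bmpr1a at 0.831 and Mmp25 at 0.822. S100a4 was nearest to Pi4k2a, Rabl6 and Vamp7, at 0.954, 0.945 and 0.944, and S100a10 to Klhl6, Sfxn1 and Arl4a, at 0.887, 0.885 and 0.877. Between members, r was 0.999 for S100a8 and S100a9 and 0.938 for S100a8 and S100a11, and it was -0.52 for S100a8 and S100a4 and 0.102 for S100a4 and S100a10.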

How the data were processed

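The authors deposited raw UMI counts per gene and cell for each library, made with Cell Ranger 5.0.0 and mm10 per the file headers and the submitters' processing notes. Cells between the 5th and 95th percentile of genes and of UMIs in their library, with under 10% mitochondrial UMIs, were kept. They were clustered with Seurat 5.3.0 (15 principal components, resolution 0.5) with S100 genes left out of the 2000 variable features, which left 1995, and named from marker lists. The score limits for names, 0.4 and 0.3, were set after seeing the data. Neutrophils, and T and NK cells, were clustered again. Scrublet (in scanpy 1.11.5) called doublets at the WT threshold of 0.2167, since its own threshold for APP/PS1, 0.7282, called none. Called cells were kept and left out in an alternative. UMIs were summed per library and type, with exact Poisson intervals for levels, conditional exact intervals for ratios and Clopper-Pearson intervals for shares. On simulated data, 95.5% of the ratio intervals over 8925 genes held the true value. The simulated counts were Poisson, as the intervals assume. This checks the calculation only, since spread between cells or mice was not simulated. With 1 library per genotype edgeR 4.0.16 gave TMM library sizes only, and no p-value was computed. The 6 members are the named genes, beside lists of receptors, partners, regulators and other S100 genes and the 3 genes most like each member. Members and lists were chosen with earlier results of these data known.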

Additional observations from a re-analysis of the deposited data

How the results depend on the processing

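No paired analysis was possible because each genotype had 1 library, and for the same reason no replicate could be left out. Each value was compared with its own counting interval, which is narrow for abundant genes. In neutrophils the log2 ratio of APP/PS1 to WT kept its sign for all 6 members under all alternatives, except S100a10 under the marker gate, which gives each cell the type of its most abundant markers. That gate gave S100a8 -0.17, S100a9 -0.074, S100a6 -0.23, S100a11 0.22, S100a4 -0.90 and S100a10 -0.031, and it moved the median of all genes by -0.11. Other ratios that moved were, with no percentile limits on cells, S100a9 -0.22, S100a6 -0.39, S100a11 0.065 and S100a10 0.26, and with limits over both libraries together S100a8 -0.29 and S100a9 -0.20. Without called doublets they were S100a8 -0.28, S100a9 -0.19 and S100a6 -0.35, and with S100 genes kept among the clustering features S100a8 -0.29 and S100a9 -0.20. TMM library sizes gave S100a8 -0.36, S100a9 -0.27, S100a6 -0.42 and S100a11 0.031, totals without S100a8 and S100a9 gave S100a8 -0.34, S100a9 -0.25, S100a6 -0.40 and S100a11 0.046, and median-of-ratios size factors gave S100a8 -0.35, S100a9 -0.25, S100a6 -0.40 and S100a11 0.043. The mean over cells gave S100a8 -0.34 and S100a9 -0.24, and thinning to 1000 UMIs gave S100a8 -0.34, S100a9 -0.24 and S100a4 -0.70. With 2 alternatives chosen after seeing the data, neutrophils with platelet genes included gave S100a9 -0.21 and S100a10 0.63 and 2 members past the fold, and cluster 4 left out gave S100a8 -0.37, S100a9 -0.26 and S100a11 0.10 and 0 members past it.

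The S100a8 ratio in classical monocytes reversed to 0.35 without doublets and 0.52 under the gate, and in B cells the gate gave 0.58 for S100a8 and 0.60 for S100a9. The cause of these reversals was not tested. In WT and APP/PS1 in turn, S100a8 in neutrophils was 66040.1 and 53598 CPM with no percentile limits and 52875 and 46985 CPM under the gate, and 66148 CPM in WT without doublets. The share of UMIs from S100a8 and S100a9 was 16.1 and 13.5%, 13 and 12% and, in WT, 16.2% in the same order. S100a4 in classical monocytes was 2420.5 and 2279 CPM with no percentile limits, 2801 and 2601 CPM without doublets and 2723 CPM in WT under the gate. S100a10 in NK cells was 1358 and 1359 CPM, 1317 and 1338 CPM and, in APP/PS1 under the gate, 1301 CPM. S100a8 in NK cells as a percent of its neutrophil level was 1.35 and 1.84% with no percentile limits, 3.67 and 3.62% without doublets and 6.56 and 6.94% under the gate. Leaving out cells with 3 or more guide UMIs gave 1.06 and 1.36%, and leaving out T/NK cluster 2 gave 1.21 and 1.71%, both chosen after seeing the data. With no percentile limits, 55 WT and 111 APP/PS1 cells formed a cluster led by NK genes. It scored 0.569 for NK markers and 0.369 for neutrophil markers and stayed unnamed. The NK values with no percentile limits therefore leave its cells out.

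Genes past the fold, in the order neutrophils, neutrophils with platelet genes, classical and nonclassical monocytes, NK cells, T cells led by Cd8b1 and B cells, numbered 408, 246, 299, 237, 95, 144 and 152 at a minimum of 200 UMIs and 6398, 6297, 5539, 5150, 5675, 6091 and 5964 at a minimum of 1 UMI. In the same order these were 6.24%, 5.33%, 3.63%, 3.43%, 2.82%, 7.15% and 6.7% of the genes tested at 200 UMIs. At 1 UMI the shares were 38.5%, 42.2%, 33.3%, 33.5%, 39.6%, 43.5% and 42.4%. The log2 ratio of S100a8 between the Camp-led cluster and the cluster of Retnlg-low markers was 1.27 and 1.5 with no anchoring, 1.25 and 1.53 with 30 principal components and 2.01 and 2.36 with S100 genes among the features. For S100a11 it was -0.44 and -0.53 with no anchoring and -0.41 and -0.49 with 30 principal components.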
